A study of Mus musculus with 6 samples.

Results

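The actin genes of the mouse were described in whole tibialis anterior (TA) muscle 7 days after knock-down of Yap. They comprise Actc1, Acta1, Acta2, Actg2, Actb and Actg1, and were picked from the count table by gene symbol. Of the 6 symbols, 5 had a row among the 13226 genes of the table, and Actg2, the gamma actin of visceral smooth muscle, had none. The choice of this family rests on these data: in the Yap-shRNA against control contrast Actc1 was one of the genes that a likelihood ratio test had called. For that reason the levels and fold changes of the actins are given here as a description, with no test. The muscles came from male C57BL/6 mice aged 8 weeks. AAV6 vectors were injected into the contralateral TA muscles, so that one leg received AAV6:Yap-shRNA and the other a control vector, and 3 muscles of each kind were sequenced. AAV6, an adeno-associated virus, transduces muscle fibres, and the shRNA (short hairpin RNA) lowers the transcript that it matches. The Yap hairpin was carried by a plasmid with a CMV promoter, which is active in many cell types, and an eGFP sequence. The control is an empty vector by the sample titles but AAV6:LacZ-shRNA by the vector field and the study's own text, so these muscles are called control. Every muscle had received virus, and no muscle without vector was part of the comparison.

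Actins are the globular proteins that polymerise into thin filaments and into the cytoskeleton. Acta1 encodes the alpha actin of adult skeletal muscle and is the main thin filament actin of its fibres. Actc1 encodes the cardiac alpha actin, which is the main actin of the heart, is also made in developing skeletal muscle, and gives way to Acta1 as skeletal muscle matures. Acta2 encodes the alpha actin of vascular smooth muscle, and Actb and Actg1 encode the beta and gamma actins of the cytoskeleton, which are found in every cell type. Many actin genes are targets of SRF (serum response factor), which binds the CArG box and works with the coactivators MRTF-A and MRTF-B. Free actin monomer holds these coactivators in the cytoplasm. Yap is a transcriptional coactivator without a DNA binding domain of its own, and it acts mainly with the TEAD factors, which bind the MCAT sequence.

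The actin genes lie apart from one another in the genome, all of them on the minus strand of GRCm38. In the GENCODE M21 annotation Actc1 (ENSMUSG00000068614) spans chr2:114047282-114053548 with 7 exons, and Acta1 (ENSMUSG00000031972) spans chr8:123891769-123894751 with 7 exons. Acta2 lies at chr19:34241090-34255590, Actg2 at chr6:83512905-83536265, Actb at chr5:142903115-142906754 and Actg1 at chr11:120345690-120348542. The coding sequences of Actc1, Acta1 and Acta2 each hold 377 codons, against 376 for Actg2 and 375 for Actb and Actg1. Over the coding sequence, Actc1 and Acta1 shared 86.2% of their bases and differed at 157, while Actc1 and Acta2 shared 82.5%. The closest pair of the family was Actb and Actg1, at 88.7%. The first 90 coding bases are printed below because they show how far apart reads of one actin lie from those of another. Capitals mark the bases that differ from a second actin: Acta1 for the Actc1 line, Actc1 for the Acta1 and Acta2 lines, Actg1 for the Actb line and Actb for the Actg1 line.
Actc1: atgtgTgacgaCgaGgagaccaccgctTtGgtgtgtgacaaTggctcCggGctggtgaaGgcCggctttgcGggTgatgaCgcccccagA
Acta1: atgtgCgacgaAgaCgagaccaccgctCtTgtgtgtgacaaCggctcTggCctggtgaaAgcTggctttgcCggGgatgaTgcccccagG
Acta2: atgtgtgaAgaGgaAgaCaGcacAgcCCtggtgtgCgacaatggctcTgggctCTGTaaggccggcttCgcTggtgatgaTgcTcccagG
Actb: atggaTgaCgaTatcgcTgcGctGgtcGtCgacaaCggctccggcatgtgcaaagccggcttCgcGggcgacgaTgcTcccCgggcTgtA
Actg1: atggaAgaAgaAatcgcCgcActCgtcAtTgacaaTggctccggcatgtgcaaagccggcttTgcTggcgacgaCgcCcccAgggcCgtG
These sequences come from the GENCODE M21 transcripts and are exonic. Within the 90 bases Actc1 and Acta1 differed at 14, Acta2 and Actc1 at 19, and Actb and Actg1 at 16. Over the whole transcript, no run of 100 bases of Actc1, Acta1 or Acta2 occurred in a transcript of any other gene. For runs of 50 bases the share found elsewhere was 0% for Actc1, 2.22% for Acta1 and 0.353% for Acta2. It was 14.2% for Actb, chiefly in transcripts of Lrrc58 and Gm15725, and 56.7% for Actg1. Actg1 stood apart, since 51.1% of its 100-base runs (against 1.10% for Actb) also occurred in other transcripts, chiefly those of the predicted genes Gm12715 and Gm8399, and none of these runs was shared with another actin. In addition, 4.25% of the exonic bases of Actg1 lie under the annotated miRNA gene Gm23419. The count of Actg1 is therefore uncertain, as the handling of reads that map to several places is not given in the sources used here.

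The promoters of the muscle pair are shown because Actc1 was lower in the treated muscles while the levels of Acta1, a gene for nearly the same protein, overlapped between the groups. Each run is the 250 bases before the RefSeq start of the gene (GRCm38.p6), read on the minus strand, and capitals mark the CArG box and the MCAT sequence.
Actc1 promoter: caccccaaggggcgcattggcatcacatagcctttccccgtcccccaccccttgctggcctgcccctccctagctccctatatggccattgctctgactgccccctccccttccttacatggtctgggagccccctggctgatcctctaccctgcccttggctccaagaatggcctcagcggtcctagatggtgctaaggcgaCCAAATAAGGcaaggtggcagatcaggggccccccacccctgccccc
Acta1 promoter: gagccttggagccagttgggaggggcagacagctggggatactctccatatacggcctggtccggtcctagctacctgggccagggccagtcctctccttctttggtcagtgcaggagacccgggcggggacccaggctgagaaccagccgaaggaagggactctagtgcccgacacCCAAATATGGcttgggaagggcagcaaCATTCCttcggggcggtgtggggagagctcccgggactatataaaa
The Actc1 run is chr2:114052876-114053125 and the Acta1 run chr8:123894776-123895025. The Actc1 run reaches a few bases into the first exon of the main transcript in GENCODE M21, and the rest of it lies in an intron of the other of 2 transcript models, which starts further upstream. Both strands were searched for the full CArG box, CCWWWWWWGG with W for A or T, and for CATTCC, the letters of MCAT. On the other strand CATTCC reads GGAATG. Sequences that depart from the full box by a letter were not searched for or marked. Examples are ccctatatgg in the Actc1 run and ccatatacgg in the Acta1 run. Neither motif overlaps the other. The distances below are counted from the RefSeq start, and GENCODE M21 places the starts elsewhere. The Acta1 run ends upstream of the GENCODE start of that gene (chr8:123894751), while the runs of Acta2 and Actg1 reach into the annotated genes. The distances of different genes are therefore not strictly comparable. A CArG box (CCAAATAAGG) began 47 bases before the start of Actc1, and another (CCAAATATGG) began 73 bases before that of Acta1. Acta1 also held CATTCC from 46 to 41 bases before its start, and these letters were not in the Actc1 run. Of the other members with a RefSeq entry, Acta2 held GGAATG from 146 to 141 bases before its start. It held no full CArG box, but it held ccctatatgg and ccttgtttgg, which each depart from the full box by a letter. Actg1 held a full CArG box from 90 to 81 bases before its start. Over all 32851 promoter entries of the same length, 1.47% held a full CArG box and 12.6% held MCAT. These matches describe letters only.

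The libraries held 11987167 to 12710393 counts. Counts were scaled to CPM, the count relative to library size (with edgeR's TMM factors of 0.969 to 1.05), and the order of the actins by level is given after division by transcript length (CPM per kb). Yap1, the targeted gene, was measured at 71.2, 65.3 and 68.4 CPM in controls 1 to 3 and at 32.0, 23.9 and 39.5 CPM in the Yap-shRNA muscles of the same numbers. It was below every control in every treated muscle, at 46.5% of the control mean. The log2 fold change was -1.10 with a standard error of 0.16 (edgeR quasi-likelihood test, unadjusted p = 5.35e-05, adjusted p = 0.323). DESeq2 called Yap1 (adjusted p = 5.05e-07), as did edgeR's likelihood ratio test (adjusted p = 1.72e-06). Without control 1 and Yap-shRNA 3 the log2 fold change of Yap1 was -1.26 (quasi-likelihood test, adjusted p = 0.0375). With all muscles, the quasi-likelihood test called 0 of 13113 genes, or 0%, with 211 at an unadjusted p under 0.05, and limma-voom called 0% as well. DESeq2 called 5 genes (0.0381%), none of them an actin, and the likelihood ratio test of edgeR also called 5 (0.0381%), with Actc1 among them. Fast fibres make up most of the TA, and the 8 markers of such fibres summed to 122780 to 142740 CPM. Of the 6 heart markers only Myh6, the alpha myosin heavy chain of the heart, had a row, at 1.15 to 3.85 CPM. Control 1 and Yap-shRNA 3 stood apart from the other libraries in 6 fibroblast markers, which summed to 2000 and 2250 CPM there against 1011 to 1199 CPM in the remaining muscles. They also had the highest sums of 9 satellite cell and regenerating fibre markers, at 103 and 126 CPM against 60.4 to 89.2 CPM. Log2 fold changes without both of these libraries are given beside each actin, and for other genes where the call or the sign changed or where the levels moved with these markers. For Myh3 and Myh8, which also moved with these markers, the levels alone are given.

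Actc1, the cardiac actin, stood lower in every treated muscle than in every control. The deposited table gave it 4810, 5749 and 4154 counts in controls 1 to 3, and 1489, 3318 and 2020 counts in the 3 muscles with Yap-shRNA. After scaling these were 374, 481 and 341 CPM in controls and 125, 255 and 161 CPM in treated muscles. The groups did not overlap, and the nearest pair, control 3 and Yap-shRNA 2, was separated by less than the range within either group. The means were 399 ± 73.0 CPM (SD, n = 3) in controls and 180 ± 67.0 CPM (SD, n = 3) in treated muscles, or 45.2% of control. This was a log2 fold change of -1.14 (standard error 0.24). Without control 1 and Yap-shRNA 3 it was -1.11. Actc1 was the only one of the 5 measured actins whose groups did not overlap, and over all 13226 genes 2.71% were lower in this way, 2.56% were higher and 5.27% did either. Since Actc1 was chosen from this contrast, nothing is read from these shares. In whole muscle, fewer cells that express a gene and less RNA of that gene per cell cannot be told apart.

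The spread of Actc1 within a group depended on the scale. The highest control exceeded the lowest 1.41-fold and the highest Yap-shRNA muscle exceeded the lowest 2.04-fold, whereas in CPM the SD of the treated muscles (67.0) was not above that of the controls (73.0). Muscles of the same number, which the labels do not tie to one animal, gave log2 ratios of -1.58, -0.92 and -1.08 for Actc1. The corresponding log2 ratios of Yap1 were -1.16, -1.45 and -0.79. Among the Yap-shRNA muscles the lowest Yap1 (muscle 2) went with the highest Actc1, and 3 muscles do not allow a test of that order.

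Acta1, the skeletal alpha actin, was by far the most abundant. It took 518205, 538525 and 560768 counts in the controls and 505300, 456560 and 601857 in the treated muscles, or 40334, 45026 and 46013 CPM against 42391, 35056 and 47995 CPM. The groups overlapped fully, since the treated muscles held both the lowest and the highest value. The means were 43791 ± 3034 CPM and 41814 ± 6489 CPM (SD, n = 3 each), or 95.5% of control. A log2 fold change of -0.07 (standard error 0.12) was less than the spread between muscles. Without control 1 and Yap-shRNA 3 it was -0.23, and without Yap-shRNA 2, the library with the lowest Acta1, it was 0.045.

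Acta2, the smooth muscle alpha actin, was low and variable. Its levels were 67.3, 105 and 55.1 CPM in the controls and 53.2, 37.3 and 71.1 CPM in Yap-shRNA muscles. Control 2 was the highest and Yap-shRNA 2 the lowest, and the groups overlapped. The means were 75.8 ± 26.0 CPM and 53.9 ± 16.9 CPM (SD, n = 3 each), a log2 fold change of -0.49 (standard error 0.26). Without control 2 it was -0.19, and without control 1 and Yap-shRNA 3 it was -0.82. Of the 14 smooth muscle and pericyte markers, 12 had a log2 fold change below 0, with a median of -0.09, and 0 were called. Their sums were 1689 to 1835 CPM in controls and 1524 to 1777 CPM in treated muscles, and their part in the Acta2 values was not tested. Relative to Myh11, the smooth muscle myosin heavy chain, Acta2 stood at 2.15, 2.09 and 1.84 counts per Myh11 count in the controls and at 1.55, 1.61 and 1.93 in Yap-shRNA muscles. On that ratio too the groups overlapped, through control 3 and Yap-shRNA 3.

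The cytoskeletal actins showed no shift between the groups beyond their spread. Actb stood at 248, 319 and 251 CPM in the controls and 217, 315 and 307 CPM in Yap-shRNA muscles, so that the highest muscles of the groups were nearly equal and the lowest was a treated one. Its means were 272 ± 40.1 CPM and 280 ± 54.5 CPM (SD, n = 3 each), and the log2 fold change was 0.04 (standard error 0.16), or -0.099 without control 1 and Yap-shRNA 3. Actg1 was counted only 51, 80 and 81 times in the controls and 39, 98 and 90 times in the treated muscles. Muscle 1 was the lowest of its group in both cases. The log2 fold change of Actg1 was 0.06 (standard error 0.32), or -0.29 without control 1 and Yap-shRNA 3, with 5.77 ± 1.56 CPM against 5.99 ± 2.36 CPM (SD, n = 3 each). Its level is the one most exposed to shared sequence, as described above, and the part of that in its low count was not tested.

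**Figure D1:**
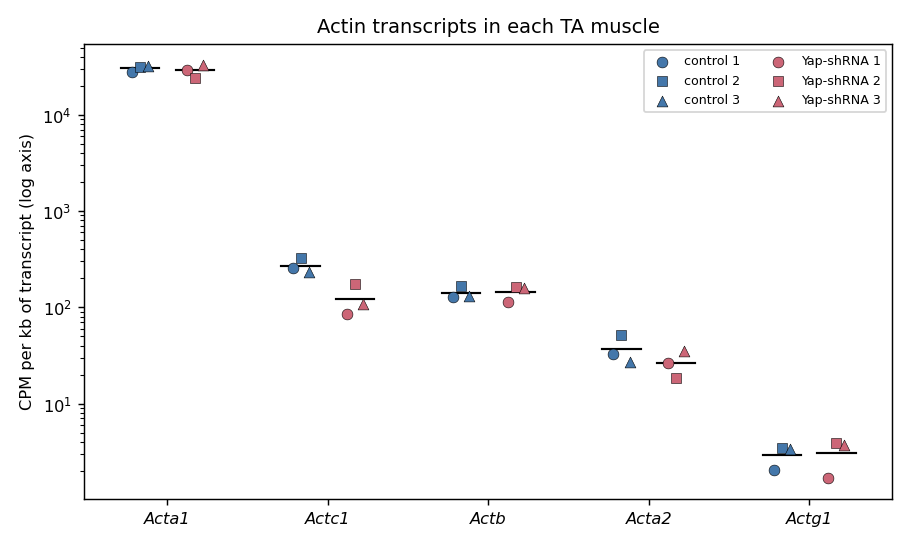
Level of each measured actin in CPM per kb of transcript on a log axis, with 1 point per muscle (3 control in blue, 3 Yap-shRNA in red, the shape giving the number in the label) and a bar at the mean of each group. Actc1 lies at 231 to 326 CPM per kb in the controls and 84.8 to 173 in Yap-shRNA muscles, while the points of the other 4 actins overlap between the groups.

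Per transcript length the order of the actins changed in its middle. In control muscles Acta1 led at 27893 to 31821 CPM per kb, followed by Actc1 at 254, 326 and 231, Actb at 129, 166 and 131, Acta2 at 27.1 to 51.6 and Actg1 at 2.03 to 3.43. No neighbouring pair of this order overlapped among the control muscles. In Yap-shRNA muscles Actc1 stood at 84.8, 173 and 109 CPM per kb while Actb was at 113, 164 and 160, and these ranges overlapped. Actc1 was above Actb in 3 of 3 control muscles and in Yap-shRNA muscle 2 only. Acta1, Acta2 and Actg1 kept their places in the order.

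Ratios within a library do not depend on the scaling between libraries. All actins together took 4.29, 4.45 and 4.53% of the counts in the controls and 4.25, 3.69 and 4.79% in Yap-shRNA muscles. The treated values lay on both sides of the controls. Acta1 alone was 98.0 to 99.1% of the actin counts of each library, Actb 0.507 to 0.882%, Acta2 0.105 to 0.229% and Actg1 0.00765 to 0.0211%. Actc1 was 0.913, 1.05 and 0.730% of the actin counts in the controls and 0.292, 0.714 and 0.332% in Yap-shRNA muscles. Here control 3 and Yap-shRNA 2 nearly met: their 95% Wilson intervals, which cover counting error only, ran from 0.709 to 0.753% and from 0.690 to 0.739% and so overlapped. Per 1000 Acta1 counts, Actc1 stood at 9.28, 10.7 and 7.41 in the controls and 2.95, 7.27 and 3.36 in Yap-shRNA muscles. The closeness of these 2 muscles on this scale went with Acta1, which was lowest in Yap-shRNA 2.

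When Acta1 was set aside, the groups lay further apart. Of the counts on the other 4 actins, Actc1 took 54.0, 52.8 and 52.2% in the controls and 31.4, 41.5 and 29.5% in Yap-shRNA muscles. The controls lay close together, and the lowest of them was 10.7 percentage points above the highest treated muscle. Actb took the larger part in treated muscles, with 35.7, 35.0 and 38.4% in controls against 54.5, 51.2 and 56.2%. These parts add up to a whole, so the part of Actb rises when that of Actc1 falls. The CPM of Actb itself overlapped between the groups. There were 1.51, 1.51 and 1.36 Actc1 counts per Actb count in the controls and 0.576, 0.810 and 0.524 in Yap-shRNA muscles. The cardiac actin was thus counted more often than beta actin in each control and less often in each treated muscle, without regard to transcript length. Per kb, Actc1 was above Actb in Yap-shRNA 2, at 173 against 164 CPM per kb. These ratios use the same counts as the fold changes above and are no separate evidence.

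**Figure D2:**
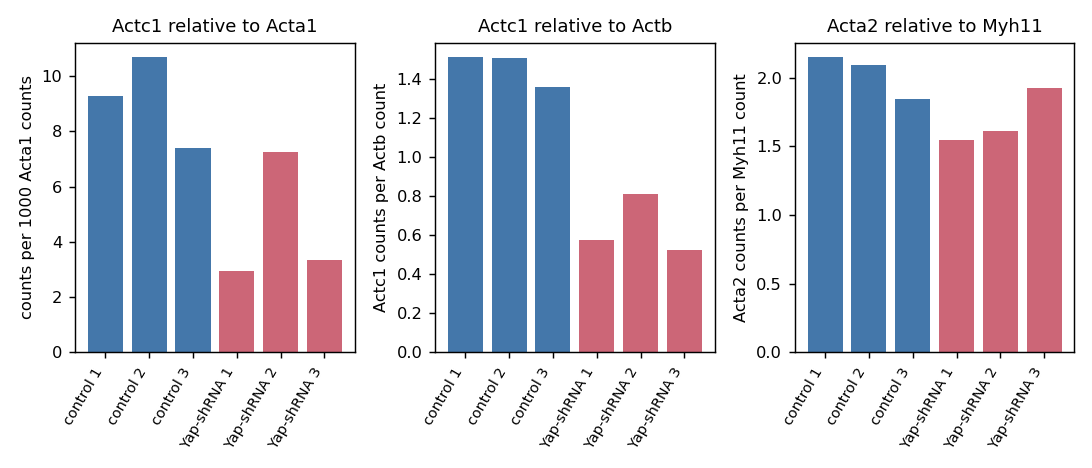
Ratios of actin counts within each library, as 1 bar per muscle from 0 (control in blue, Yap-shRNA in red): Actc1 per 1000 Acta1 counts, Actc1 per Actb count and Acta2 per Myh11 count. Actc1 per Actb count is 1.36 to 1.51 in the controls and 0.524 to 0.810 in Yap-shRNA muscles, whereas Acta2 per Myh11 count overlaps between the groups.

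Genes around the actins were described by lists that were written with earlier results of these data known. None of the genes in any list was called by edgeR's quasi-likelihood test, and all adjusted p-values given by it for the genes below were 1.00. The median log2 fold change over all genes tested was -0.0025. Of the SRF and MRTF pathway, 21 of 22 genes had a row (Myocd, the smooth muscle and cardiac coactivator, did not). Of these, 14 had a log2 fold change above 0 and 7 below, with a median of 0.08. The regulators themselves lay near 0: Srf at -0.08 (standard error 0.12), Mkl1, which encodes MRTF-A, at 0.03 (0.14) and Mkl2, which encodes MRTF-B, at 0.08 (0.12). Without control 1 and Yap-shRNA 3, Mkl1 was at -0.16. Srf stood at 92.5, 123.7 and 121.1 CPM in the controls and 101.8, 104.2 and 112.2 CPM in Yap-shRNA muscles, inside the control range.

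The members of that list with the highest CPM were Fhl1, a LIM domain protein of muscle, and Abra, which promotes MRTF activity in striated muscle. Their log2 fold changes were 0.18 (0.29) and -0.26 (0.20), and their groups overlapped. The largest log2 fold changes were those of Fhl2, another LIM domain protein, at 0.75 (0.30), and Junb, an immediate early transcription factor, at 0.75 (0.15). Junb stood at 13.1, 12.2 and 11.7 CPM in the controls and 20.7, 16.8 and 24.6 CPM in Yap-shRNA muscles, without overlap and in the direction opposite to Actc1. In this list 2 of 21 genes, Fhl2 and Junb, were higher without overlap, against 2.56% of all genes. Fhl2 had 10 to 11 counts in each control and 16 to 21 in each treated muscle. Its unadjusted p was 0.0306, that of Junb 0.000729, and neither passed the adjustment over all genes.

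Transcripts of the proteins that fold, store and assemble actin had small log2 fold changes, and 0 of them were called. Of the 15 folding genes, which encode the CCT chaperonin, prefoldin and a cofactor, 11 had a log2 fold change below 0, with a median of -0.04. Those with the highest CPM, Cct5 and Cct7, were at -0.10 (0.10) and -0.07 (0.11). The prefoldin subunits Pfdn4 and Pfdn5 had the largest log2 fold changes of that list, at -0.24 (0.15) and -0.11 (0.10), and Pfdn4 stood at 7.08, 7.78 and 7.38 CPM against 5.79, 6.68 and 6.38 CPM. Its groups did not overlap, and it was 1 of 15 genes to lie lower in this way, against 2.71% of all genes. Of the 16 genes of monomer and filament turnover, 9 were above 0 and 7 below, with a median of 0.02. Gsn, which severs filaments, was at 0.34 (0.17), Cfl2, the muscle cofilin, at -0.0091 (0.089) and Twf1, a monomer binding twinfilin, at 0.20 (0.19). Gsn was highest in Yap-shRNA 3, one of the libraries with high fibroblast markers, at 1154 CPM against 636.0 to 994.4 CPM in the other muscles, and its log2 fold change was 0.28 without control 1 and Yap-shRNA 3. Of the 15 genes of the Arp2/3 complex and formins, which nucleate filaments, 11 were above 0, with a median of 0.07. They ran from -0.12 (0.12) for Arpc5l to 0.20 (0.14) for Arpc5, with Arpc1b at 0.18 (0.14) and the formin Diaph1 at 0.16 (0.13).

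The partners of actin in the thin filament and the Z-disc lay close to control. Of 18 genes, 8 had a log2 fold change above 0 and 10 below, with a median of -0.05. Tpm1, a tropomyosin, was at -0.14 (0.091), with 19558, 20405 and 19504 CPM in the controls and 18651, 16661 and 18811 CPM in Yap-shRNA muscles. Its groups did not overlap, and 2 of these 18 genes lay lower in this way against 2.71% of all genes, but it did not pass the test. Tnnt3, the fast troponin T, was at -0.13 (0.11). The largest log2 fold changes in the list were those of Klhl40, which stabilises thin filament proteins, at 0.31 (0.13), and Xirp1, an actin binding repeat protein, at 0.29 (0.14). The groups overlapped for both, and the unadjusted p of Klhl40 was 0.0444.

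As Actc1 belongs to the cardiac and developing muscle programme, it was set beside 18 other muscle genes of cardiac, slow or embryonic type, of which 15 had a row. Their median log2 fold change was -0.17, with 6 above 0 and 9 below, and 0 were called. Casq2, the calsequestrin of heart and slow fibres, lay lower in all 3 treated muscles than in all controls, at 66.5, 78.8 and 70.0 CPM against 48.1, 52.1 and 55.3 CPM. Its log2 fold change was -0.47 (0.10), with an unadjusted p of 0.00127, which did not pass the adjustment. Myl2, the regulatory light chain of heart and slow fibres, lay higher in all 3 treated muscles, with 26, 33 and 15 counts against 39, 50 and 50, a log2 fold change of 0.88 (0.29). Its unadjusted p was 0.0126. In this list 1 of 15 genes was lower without overlap and 1 higher, against 2.71% and 2.56% of all genes. Myl3, the matching essential light chain, was at -0.03 (0.14). Ankrd1, a stress-responsive titin binding protein, was at 0.81 (0.41), with 34.9, 10.5 and 10.3 CPM in the controls and 30.5, 27.1 and 40.3 CPM in treated ones. Control 1 alone overlapped with the treated group, and without control 1 and Yap-shRNA 3 the log2 fold change was 1.47, past the threshold in the same test (adjusted p = 0.0112). Actc1 and Ankrd1 thus lay in opposite directions.

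The embryonic and perinatal myosins did not follow Actc1 from muscle to muscle. Myh3, the embryonic heavy chain, stood at 13.6, 2.84 and 3.04 CPM in the controls and 3.44, 1.15 and 16.9 CPM in Yap-shRNA muscles. It was highest in control 1 and Yap-shRNA 3, the libraries with the highest regenerating fibre sums. Myh8, the perinatal heavy chain, stood at 19.9, 7.86 and 6.40 CPM against 7.13, 2.53 and 13.2 CPM, with its highest values in the same libraries. Actc1 was instead highest in control 2 and second lowest in Yap-shRNA 3. By group mean Myh8 was lower in the Yap-shRNA muscles, as Actc1 was, while Myh3 was slightly higher. Without control 1 and Yap-shRNA 3 the mean of each was lower in the Yap-shRNA muscles. Of the 9 satellite cell and regenerating fibre markers, 5 had a log2 fold change above 0 and 4 below. These myosins were singled out after their values were seen.

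**Figure D3:**
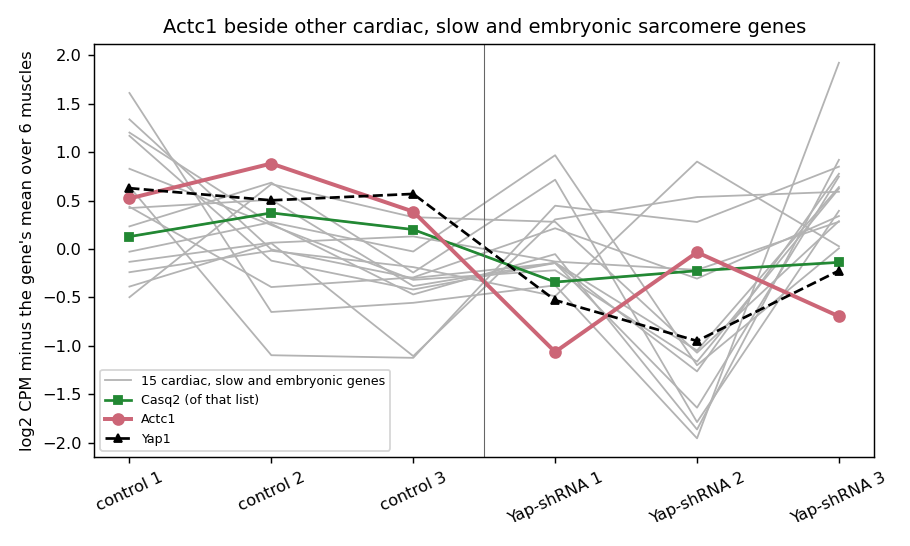
Log2 CPM of each gene minus that gene's mean over the 6 muscles, by muscle, for Actc1, Yap1, Casq2 and the 15 cardiac, slow and embryonic muscle genes with a row (grey, Casq2 among them in green). The lines join the values of one gene and stand for no order of the muscles, and Actc1 lies above its mean in the 3 controls and below it in the 3 Yap-shRNA muscles, whereas 14 of the 15 other genes lie above their own mean in Yap-shRNA 3 and 12 lie below it in Yap-shRNA 2, as do 12 in control 3.

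The marker lists of other cells gave further values beside Actc1. The 7 macrophage markers had log2 fold changes above 0 without exception, from 0.093 to 0.72 with a median of 0.37, and 0 were called. They summed to 171.6, 94.4 and 67.7 CPM in the controls and 118.1, 154.2 and 141.4 CPM in Yap-shRNA muscles, with control 1 above all treated muscles. Among these 7 genes, 1 lay higher in the treated muscles without overlap, against 2.56% of all genes. The 6 endothelial markers summed to 319.5 to 381.3 CPM in controls and 335.4 to 360.9 CPM in treated muscles. The 8 fast fibre markers all had log2 fold changes below 0, from -0.17 to -0.0019, and 0 were called. Of the heart list, Nppa, Myl7, Tnni3, Mybpc3 and Ryr2 had no row. The part of the other lists in the Actc1 values was not tested.

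The genes whose pattern over the 6 muscles was most like that of Actc1 were found by the root mean square difference of log2 CPM, each gene centred on its own mean, among 12976 genes. The nearest were A930033H14Rik at 0.284, Gm38157 at 0.335, Arsg, a lysosomal sulfatase, at 0.348, Gm8894 at 0.350 and Ttc41 at 0.358. The median over all these genes was 0.707, and Actc1 itself deviated from its mean by 0.684. All 5 nearest genes were scarce, with 0.984 to 2.47 CPM on average and 5 to 49 counts in a library, against 1489 to 5749 counts for Actc1. A930033H14Rik, for instance, was counted 19, 21 and 18 times in controls and 5, 15 and 13 times in treated muscles, with the lowest value in the same muscle as Actc1. None of the 5 was a sarcomere or actin regulator gene of the lists above.

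The log2 fold change of Actc1 stayed below 0 in each of 17 other settings of the analysis, from -1.48 without Yap-shRNA 2 to -0.94 without Yap-shRNA 1. As every treated muscle lay below every control, leaving out muscles could not turn this sign, and nothing is concluded from it. The log2 fold change of Acta2 was also below 0 in 17 of 17, from -0.82 to -0.19. The signs of the remaining actins depended on which libraries were in the fit: Acta1 kept its sign in 16 of 17, Actb in 12 and Actg1 in 13, within ranges of -0.23 to 0.045, -0.099 to 0.19 and -0.29 to 0.35.

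**Figure D4:**
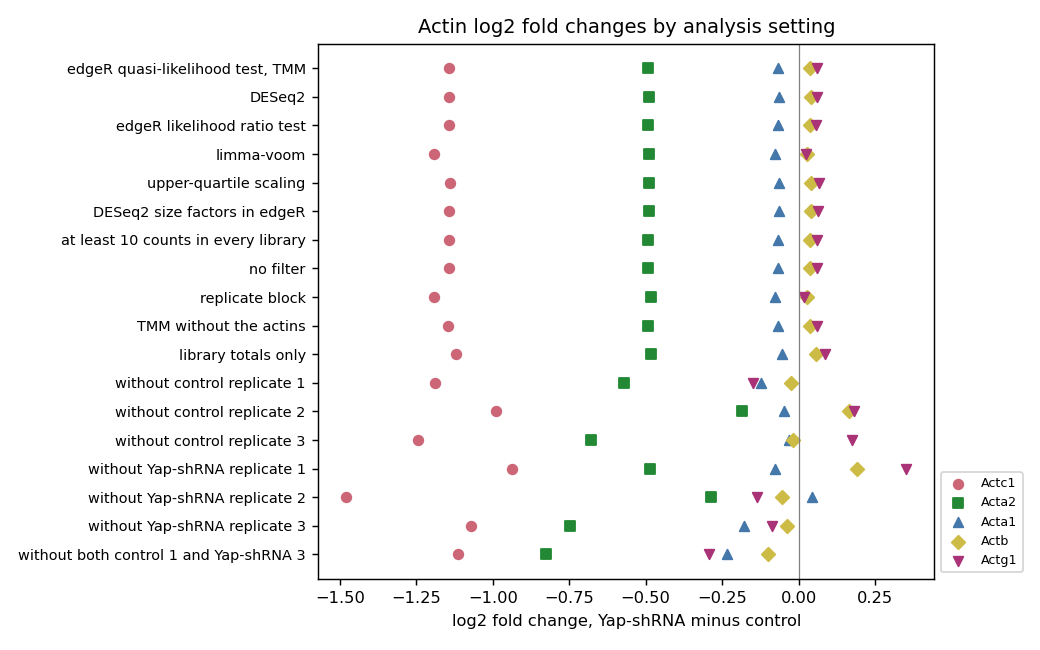
Log2 fold change (Yap-shRNA minus control) of each measured actin under the setting of the text, in the top line, and under the 17 other settings below it, with 1 symbol per gene and a line at 0. Actc1 lies between -1.48 and -0.94 throughout, apart from the symbols of the other actins, and the value farthest from the top line comes, for each actin, from a setting that leaves out 1 or 2 muscles.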

How the data were processed

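PolyA+ RNA (TRIzol, Illumina TruSeq) of 3 control and 3 Yap-shRNA TA muscles was sequenced. The authors deposited raw read counts per Ensembl gene, without normalisation, and no gene had fewer than 60 counts over the 6 libraries. The submitters' processing notes name bcl2fastq 2.20.0.422 and GRCm38. The aligner, counter, annotation and strand setting are not given in the sources used here.

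Counts were scaled by TMM and fitted with edgeR 4.0.16 in R 4.3.3 (quasi-likelihood test on group alone, filterByExpr, 13113 of 13226 genes tested, Benjamini-Hochberg adjustment, threshold 0.05), after a check on simulated counts. Standard errors, in parentheses after log2 fold changes, were derived from the fold change and the F statistic. Alternatives were DESeq2 1.42.0, limma-voom (limma 3.58.1), the likelihood ratio test, other scalings, no filter, at least 10 counts in every library, a replicate block and leaving out muscles. Leaving out both control 1 and Yap-shRNA 3, and 2 extra scalings of the list genes, were chosen after seeing the data.

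Members and lists were chosen with earlier results of these data known. Named were the actins, Yap1, the SRF and MRTF regulators, the 2 genes of highest mean CPM and the 2 of largest absolute log2 fold change in each of 6 lists, and the 5 genes nearest to Actc1 among those of mean log2 CPM (prior count 2) of at least 0. The muscles were treated as separate samples, since no label says that a replicate number is an animal, and p-values measure the spread between muscles only. Lengths (longest coding transcript) and positions came from GENCODE M21, and promoters from RefSeq, where 4 of the 6 actins had an entry (not Actb and Actg2).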

Additional observations from a re-analysis of the deposited data

How the results depend on the processing

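The quasi-likelihood test called 0 genes, as did limma-voom, the other scalings and filters and the replicate block. DESeq2 called 5 (Ccl2, Hspb7, Mir155hg, Rrad and Yap1) and the likelihood ratio test 5 (Actc1, Ccl2, Mir155hg, Rrad and Yap1). Leaving out each muscle in turn gave 0 to 1 gene, Rrad without control 1 and Mir155hg without Yap-shRNA 3. Without both of these libraries 4 genes were called (Ankrd1, Mir155hg, Rrad and Yap1). The cause was not tested.

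Of the named genes other than actins, 5 changed sign in the log2 fold change. Without each muscle in turn the range was -0.068 to 0.46 for Fhl1, -0.037 to 0.019 for Cfl2, -0.20 to 0.066 for Myl3, -0.071 to 0.15 for Mkl1 and -0.0089 to 0.20 for Mkl2. Cfl2 was at 0.0056 with library totals only, and Mkl1 at -0.16 without control 1 and Yap-shRNA 3. Over these named genes and their settings 524 values kept direction and call, 13 changed sign and 4 gained a call. The 4 were Ankrd1 without both libraries and Yap1 with DESeq2, the likelihood ratio test and without both libraries.

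The difference in the Actc1 share of actin counts was -0.45 percentage points, and -0.58 to -0.37 without each muscle in turn. That of all actins in the total counts was -0.18, and -0.45 to 0.096, turning positive without Yap-shRNA 2. With the replicate block the log2 fold change of Actc1 was -1.19, and the block changed no call. Deviations of muscles with the same number from their group means had correlations of -0.065, 0.20 and -0.32 across genes. The highest correlation of any control with any treated muscle was 0.38, for control 1 and Yap-shRNA 3, the libraries with high fibroblast markers. Such values cannot show which muscles came from one animal. The legs were contralateral, but no label ties a number to an animal, so the numbers were not taken as pairs. With 3 muscles in a group, 1 library can move a mean by much of its spread, and for Actg1, with 39 to 98 counts, counting error adds to it.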
